A study of Rattus norvegicus with 18 samples.

Results

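Kpnb1, Kpna6 and Jun are 3 mRNAs of the retrograde injury response of nerve. They were chosen as the table entries with these gene symbols, 1 entry each and 3 of 13416 transcript entries in all (12344 symbols), and all 3 passed the filter on low counts. They were read in RNA from axoplasm, the cytoplasm squeezed out of nerve, extruded from sciatic nerve on the proximal side of a crush made 7 days earlier in rats of the Sprague-Dawley (SD) strain. Every group shares that injury, and uninjured nerve was not analysed here. In 5 groups the RNA was taken by RNA immunoprecipitation (RIP), in which an antibody pulls down an RNA-binding protein with the RNA attached to it, after the axoplasm had been precleared on Protein A/G beads. The antibodies were against hnRNP H1, hnRNP F, hnRNP K and La/SSB, and FLAG, an epitope tag that serves as the control precipitation. The remaining group was Input, axoplasm RNA that was not precipitated. Each group had 3 libraries, 18 in all. Nothing in the labels says whether libraries of a group came from separate rats, so a p-value here measures the spread between libraries only, and that spread may be technical.

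Importins carry proteins with a nuclear localization signal into the nucleus. Kpnb1 codes for importin beta, which binds the cargo adaptor importin alpha and the nuclear pore; Kpna6 codes for an importin alpha, which recognises the cargo signal. In rodent sciatic nerve, Kpnb1 mRNA is known to be present in axons and to be translated there after injury, so that importin alpha and beta form a complex that binds dynein and carries injury signals back to the cell body. Jun codes for c-Jun, a subunit of the transcription factor AP-1, which is phosphorylated by JNK kinases and is induced by nerve injury in neurons and also in Schwann cells. hnRNP H1 and hnRNP F are closely related proteins that bind G-rich RNA, hnRNP K binds C-rich RNA, and La/SSB binds the ends of RNAs made by RNA polymerase III.

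Kpnb1 mRNA was several-fold more abundant in the hnRNP H1 RIP and the hnRNP F RIP than in every other group, Kpna6 mRNA was highest in the 3 hnRNP H1 RIP libraries, and Jun mRNA was high in the hnRNP H1, hnRNP F and FLAG RIPs. Levels are given as CPM, reads per 1000000 after TMM scaling of library sizes, and as mean ± SD of 3 libraries. The edgeR F-test among the 4 specific RIPs (hnRNP H1, hnRNP F, hnRNP K and La/SSB) was passed by all 3 mRNAs, with adjusted p = 1.51e-06 for Kpnb1, 0.000434 for Kpna6 and 3.41e-08 for Jun. Of all 13276 transcripts tested, 33.3% passed it. A transcript passed, here and below, at a Benjamini-Hochberg adjusted p under 0.05 over all transcripts tested, and "rose" and "fell" are used of such entries only.

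**Figure D1:**
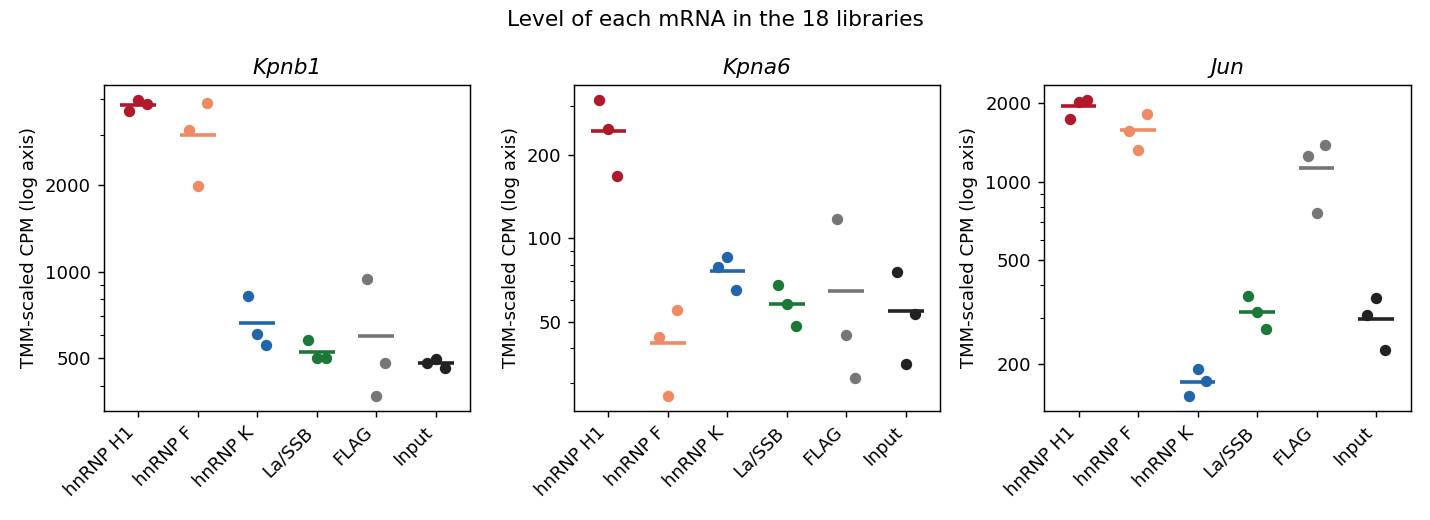
TMM-scaled CPM (log axis) of Kpnb1, Kpna6 and Jun in each of the 18 libraries (points) with the group mean (bar), 3 libraries per group. Kpnb1 is high in the hnRNP H1 and F RIPs (means 3801 and 2981 CPM), Kpna6 in the hnRNP H1 RIP (244 CPM), and Jun in the hnRNP H1, F and FLAG RIPs (1945, 1576 and 1132 CPM).

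Libraries held 4610750 to 16754262 reads, and the lowest deposited count of a member in any library was 167. The FLAG RIP libraries differed most from each other: the median SD of log2 CPM over transcripts was 0.981 in the FLAG RIP, against 0.376 to 0.741 in the 5 other groups. FLAG RIP 1 and FLAG RIP 3 had 1601 and 1568 entries at 0 reads, against 776 in FLAG RIP 2, and values from fits that keep FLAG RIP 2 alone are given beside the results that rest on the FLAG libraries. Of 12 listed neuron and axon markers 9 had an entry, all with reads in every group, and together they held 0.0338% to 0.0404% of reads in the hnRNP H1 RIP and 0.0288% to 0.0661% in the hnRNP F RIP. They held 0.0134% to 0.0141% in the hnRNP K RIP, 0.0169% to 0.0306% in the La/SSB RIP, 0.0101% to 0.0176% in the FLAG RIP and 0.0165% to 0.0192% in Input. Without Nefm, the listed marker with the most reads, they held 0.0180% to 0.0195% with hnRNP H1 and 0.01865% to 0.02715% with hnRNP F. This rest held 0.0124% to 0.0131% with hnRNP K and 0.0151% to 0.0219% with La/SSB. It held 0.00546% to 0.0106% with FLAG and 0.00993% to 0.0176% in Input. Markers of fibroblasts and perineurium (9 of 9 listed) held far more, 8.03% to 12.1% with hnRNP H1, 6.20% to 9.92% with hnRNP F, 12.1% to 21.5% with hnRNP K, 5.197% to 7.75% with La/SSB, 1.61% to 2.60% with FLAG and 4.84% to 9.64% in Input. Most of that was Col1a1, a collagen chain; without it the list held 0.248% to 0.293% with hnRNP H1, 0.277% to 0.425% with hnRNP F, 0.806% to 1.097% with hnRNP K, 0.853% to 1.03% with La/SSB, 0.691% to 0.973% with FLAG and 1.104% to 1.71% in Input, lowest with hnRNP H1 and hnRNP F. The axoplasm libraries therefore held RNA of other nerve cells as well. A share in a precipitate also depends on which RNA the antibody recovered, so it does not measure the cells present. Even in Input, which is bulk RNA, fewer cells of a type and less RNA per cell cannot be told apart.

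Kpnb1 (ENSRNOT00000012376, chromosome 10) had 3621, 3964 and 3819 CPM in the 3 hnRNP H1 RIP libraries and 3100, 1986 and 3858 CPM in the hnRNP F RIP libraries. It had 823, 606 and 553 CPM with hnRNP K and 579, 499 and 500 CPM with La/SSB. The FLAG RIP libraries had 941, 369 and 479 CPM, and the Input libraries 483, 495 and 460 CPM. All 6 libraries of the hnRNP H1 and hnRNP F RIPs lay above all 12 others, and within that pair the groups overlapped. Among the other 4 groups, hnRNP K and La/SSB each overlapped the FLAG RIP, whose library 1 was the highest of the 12.

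Against the FLAG RIP, which shows how far an mRNA comes down without a specific target, Kpnb1 averaged 3801 ± 172 CPM in the hnRNP H1 RIP and 596 ± 303 CPM in the FLAG RIP. That was 6.30-fold higher with hnRNP H1 (95% interval 3.85 to 10.3; log2 fold change 2.65 ± 0.34 SE, edgeR adjusted p = 1.31e-05), in a comparison where 39.5% of all transcripts passed and 18.3% passed as higher. In the hnRNP F RIP, at 2981 ± 942 CPM, Kpnb1 was 4.92-fold higher than in the FLAG RIP (95% interval 3.03 to 7.98; log2 2.298 ± 0.33, adjusted p = 6.74e-05), where 33.7% of all transcripts passed and 16.6% as higher. These log2 fold changes stood at percentile 87.8 and percentile 86.4 of all transcripts in their comparisons. In the fit with FLAG RIP 2 alone they were larger, 3.37 with hnRNP H1 and 3.01 with hnRNP F.

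With the other antibodies Kpnb1 did not pass against the FLAG RIP. It averaged 661 ± 143 CPM in the hnRNP K RIP (log2 0.17, 95% interval -0.50 to 0.84, adjusted p = 0.709), where 33.9% of transcripts passed. It averaged 526 ± 45.7 CPM in the La/SSB RIP (log2 -0.22, interval -0.88 to 0.45, adjusted p = 0.668), where 18.8% passed. The signs of these values depended on scaling and on the FLAG libraries: scaling by total counts gave -0.30 for hnRNP K and 0.24 for La/SSB, with the median of all transcripts moved to -0.80 (from -0.30) and 0.07 (from -0.32), and FLAG RIP 2 alone gave 0.49 for La/SSB.

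Against Input, which uses none of the FLAG libraries in the contrast, Kpnb1 was 7.93-fold higher in the hnRNP H1 RIP than the 479 ± 17.7 CPM of Input (log2 2.99 ± 0.32, adjusted p = 1.07e-06; 24.1% of transcripts passed). It was 6.22-fold higher in the hnRNP F RIP than in Input (log2 2.64 ± 0.31, adjusted p = 4.91e-06; 18.9% passed). The hnRNP K RIP (log2 0.46, 95% interval -0.15 to 1.08, adjusted p = 0.338), the La/SSB RIP (0.13, -0.48 to 0.75, 0.965) and the FLAG RIP (0.32, -0.30 to 0.93, 0.477) did not pass. All 3 hnRNP K libraries lay above the Input libraries, as did all 3 La/SSB libraries by a small margin, 499 CPM at the lowest against 495 CPM at the highest in Input. With FLAG RIP 2 alone, FLAG against Input turned to -0.39 for Kpnb1.

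Between the specific antibodies, the hnRNP H1 RIP held 5.60-fold more Kpnb1 than the hnRNP K RIP (adjusted p = 1.75e-05; 28.4% of transcripts passed) and 7.31-fold more than the La/SSB RIP (adjusted p = 9.68e-06; 16.2% passed). The hnRNP F RIP held 4.37-fold more than the hnRNP K RIP (adjusted p = 8.56e-05; 28.8% passed) and 5.71-fold more than the La/SSB RIP (adjusted p = 3.84e-05; 12.5% passed). hnRNP H1 and hnRNP F were not told apart for Kpnb1, with a log2 difference of 0.36 (95% interval -0.31 to 1.02, adjusted p = 0.747). In order of mean level the groups stood as hnRNP H1, hnRNP F, hnRNP K, FLAG, La/SSB and Input, and of these neighbours the step between hnRNP F and hnRNP K alone passed; hnRNP K against FLAG, FLAG against La/SSB and La/SSB against Input did not.

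**Figure D2:**
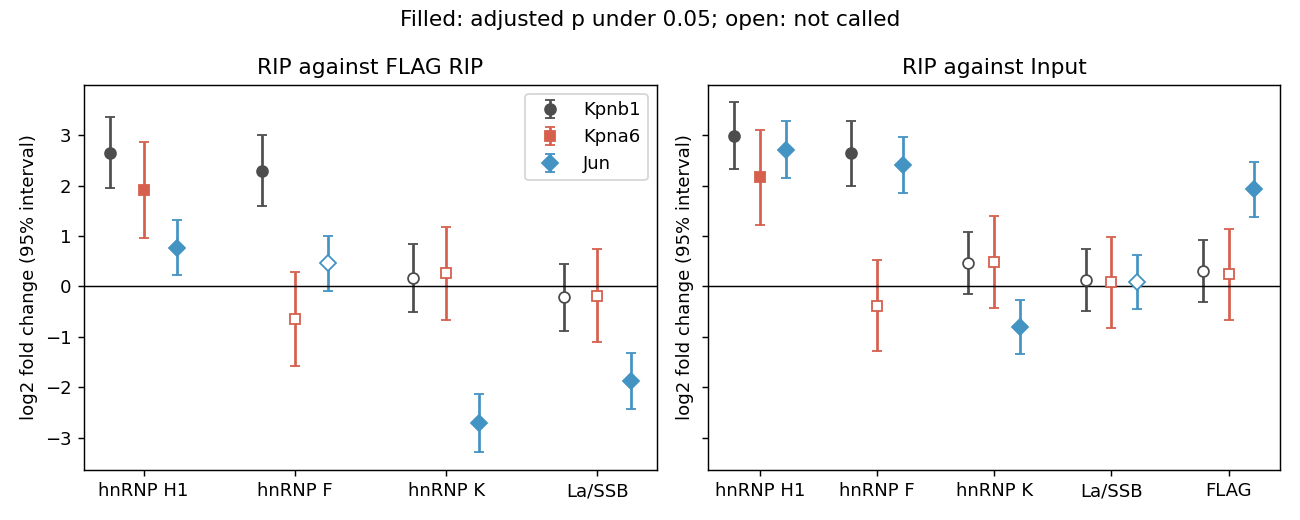
Log2 fold change with its 95% interval from the edgeR fit for Kpnb1, Kpna6 and Jun, RIP groups against the FLAG RIP (left) and against Input (right); filled symbols passed at adjusted p under 0.05. Kpnb1 lies above 0 with hnRNP H1 and hnRNP F in both panels (2.65 and 2.298 against FLAG), Kpna6 with hnRNP H1 (1.90), and Jun lies above 0 for FLAG against Input (1.93) and below 0 for hnRNP K against FLAG (-2.71).

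Kpna6 (ENSRNOT00000087556, chromosome 5) had 316, 249 and 167 CPM in the hnRNP H1 RIP libraries. The hnRNP F RIP libraries had 43.9, 26.9 and 55.1 CPM, the hnRNP K RIP libraries 78.7, 85.2 and 65.3 CPM and the La/SSB RIP libraries 67.6, 57.9 and 48.2 CPM. The FLAG RIP libraries had 117, 44.9 and 31.2 CPM and the Input libraries 75.4, 35.2 and 53.3 CPM. The 3 hnRNP H1 libraries were the highest of all 18, and the hnRNP F libraries, where Kpnb1 was high, had the lowest group mean and held the lowest single library. FLAG RIP 1 stood well above the other FLAG libraries.

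Against the FLAG RIP, Kpna6 averaged 244 ± 74.6 CPM with hnRNP H1 and 64.4 ± 46.2 CPM with FLAG, 3.74-fold higher (95% interval 1.94 to 7.24; log2 1.90 ± 0.45, adjusted p = 0.00305). Without FLAG RIP 1 the log2 fold change was 2.68, and with FLAG RIP 2 alone it was 2.45. With hnRNP F Kpna6 averaged 42.0 ± 14.2 CPM (log2 -0.64, 95% interval -1.57 to 0.29, adjusted p = 0.276), and without FLAG RIP 1 that value was 0.13. The hnRNP K RIP averaged 76.4 ± 10.2 CPM (log2 0.26, interval -0.66 to 1.19, adjusted p = 0.669; -0.20 when scaled by total counts, which moved all transcripts as given for Kpnb1). The La/SSB RIP averaged 57.9 ± 9.74 CPM (log2 -0.19, interval -1.11 to 0.73, adjusted p = 0.796), and its sign turned when scaled by total counts (0.26), with 1 subtracted from every count (0.05) and with FLAG RIP 2 alone (0.35).

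Against Input, at 54.6 ± 20.1 CPM, Kpna6 was 4.47-fold higher with hnRNP H1 (log2 2.16 ± 0.45, adjusted p = 0.00125). It did not pass with hnRNP F (log2 -0.38, 95% interval -1.29 to 0.52), hnRNP K (0.48, -0.42 to 1.39), La/SSB (0.08, -0.82 to 0.99) or FLAG (0.24, -0.66 to 1.14). The hnRNP H1 RIP also held 3.12-fold more Kpna6 than the hnRNP K RIP (adjusted p = 0.0102; 0.0503 without hnRNP K RIP 3). It held 4.26-fold more than the La/SSB RIP (adjusted p = 0.0032).

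The pair of hnRNP H1 and hnRNP F, whose libraries were not told apart for Kpnb1 or Jun, stood far apart for Kpna6. Its mean was 5.84-fold higher with hnRNP H1 (95% interval 2.97 to 11.5; log2 2.55 ± 0.47), and the lowest hnRNP H1 library, 167 CPM, lay above the highest hnRNP F library, 55.1 CPM. That value stood at percentile 98.5 of all transcripts in this comparison, but its adjusted p over all of them was 0.102, so it did not pass. In this comparison edgeR called 0 of 13276 transcripts, with 1339 at an unadjusted p under 0.05 and a lowest adjusted p of 0.0943, while DESeq2 called 81 and limma voom 5. Kpna6 was among the calls of DESeq2 (adjusted p = 0.000291) and of voom with quality weights per group (0.0177). It also passed in edgeR when scaled by total counts (0.0425), with only the 6 libraries compared (0.0419) and with replicate number as a block (0.0362); whether libraries of the same number share material is not given in the labels. Leaving out each library in turn gave log2 2.32 to 2.76 with adjusted p of 0.154 to 0.531. hnRNP F did not pass for Kpna6 against hnRNP K (log2 -0.91, 95% interval -1.84 to 0.02, edgeR adjusted p = 0.136). Nor did it pass against La/SSB (-0.45, -1.38 to 0.47, edgeR adjusted p = 0.563). hnRNP K against La/SSB gave 0.45 (-0.47 to 1.38, adjusted p = 0.549), and scaling by total counts turned it to -0.45, with the median of all transcripts moved to -1.04 (from -0.15). In order of mean level the groups stood as hnRNP H1, hnRNP K, FLAG, La/SSB, Input and hnRNP F, and every neighbouring pair after hnRNP H1 overlapped.

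Jun (ENSRNOT00000011731, chromosome 5) had 1749, 2022 and 2065 CPM in the hnRNP H1 RIP libraries and 1571, 1328 and 1828 CPM in the hnRNP F RIP libraries. It had 150, 190 and 172 CPM with hnRNP K and 363, 315 and 271 CPM with La/SSB. The FLAG RIP libraries had 1251, 762 and 1385 CPM and the Input libraries 308, 358 and 226 CPM. The FLAG libraries, which overlapped Input for both importin mRNAs, lay wholly above Input for Jun and overlapped the hnRNP F libraries. The hnRNP K libraries were the lowest of all 18.

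The control precipitation itself held 1132 ± 328 CPM of Jun, against 297 ± 66.7 CPM in Input, 3.81-fold more (95% interval 2.61 to 5.56; log2 1.93 ± 0.26, adjusted p = 0.000176; 16.2% of transcripts passed). It also passed with FLAG RIP 2 alone (log2 1.35, adjusted p = 0.0122), but with only the 6 libraries of these groups in the fit it did not pass (1.75, adjusted p = 0.0597). Jun in the hnRNP H1 RIP, at 1945 ± 171 CPM, was 6.54-fold above Input (adjusted p = 5.65e-07), and in the hnRNP F RIP, at 1576 ± 250 CPM, 5.297-fold above Input (adjusted p = 2.12e-06). La/SSB, at 317 ± 45.9 CPM, did not pass against Input (log2 0.09, 95% interval -0.44 to 0.62, adjusted p = 0.974; 0.0376% of transcripts passed). hnRNP K, at 171 ± 20.0 CPM, was at 0.575 of the Input level (log2 -0.80 ± 0.26, adjusted p = 0.0422; 13.1% passed). That call was lost without any 1 of hnRNP K RIP 1, 2 or 3 or Input 1 or 2, with adjusted p of 0.0429 to 0.205 over the 6 libraries left out in turn, and with DESeq2 size factors (0.057).

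Set against the FLAG RIP, Jun was 1.70-fold higher with hnRNP H1 (95% interval 1.17 to 2.48; log2 0.76 ± 0.26, adjusted p = 0.0255), and the 3 hnRNP H1 libraries lay above the 3 FLAG libraries. The median of all transcripts in this comparison was -0.27. The call did not hold without FLAG RIP 2 (log2 0.54, adjusted p = 0.0802), nor when either library 2 or library 3 of the hnRNP H1 RIP was left out (0.73, 0.0714, and 0.72, 0.0755), nor when scaled by total counts (0.48, 0.0958, with the median of all transcripts at -0.61). Its log2 value with FLAG RIP 2 alone was 1.36. With hnRNP F Jun did not pass (log2 0.46, interval -0.08 to 1.00, adjusted p = 0.182), except with 1 subtracted from every count (0.63, adjusted p = 0.0494) and with FLAG RIP 2 alone (1.05, adjusted p = 0.0293).

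Jun fell with hnRNP K and La/SSB relative to the FLAG RIP. It was at 0.153 of the FLAG level with hnRNP K (log2 -2.71 ± 0.28, adjusted p = 3.4e-06) and at 0.273 with La/SSB (log2 -1.87 ± 0.27, adjusted p = 0.00041). These values stood at percentile 8.59 and percentile 8.95 of all transcripts, and with FLAG RIP 2 alone they were -2.12 and -1.28. Against Input, as given above, the same libraries gave -0.80 and 0.09.

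Between the specific antibodies Jun was 11.1-fold higher with hnRNP H1 than with hnRNP K (log2 3.47 ± 0.28, adjusted p = 1.11e-07) and 8.98-fold higher with hnRNP F than with hnRNP K (3.17 ± 0.28, adjusted p = 1.93e-07). It was 6.22-fold higher with hnRNP H1 than with La/SSB (adjusted p = 2.7e-06) and 5.02-fold higher with hnRNP F than with La/SSB (adjusted p = 9.32e-06). hnRNP H1 against hnRNP F gave a log2 difference of 0.31 (95% interval -0.23 to 0.85, adjusted p = 0.728). hnRNP K against La/SSB gave -0.84 (interval -1.38 to -0.29, adjusted p = 0.04; 12.6% of transcripts passed), with no overlap of the libraries. That call was lost without any 1 of the 6 libraries (adjusted p of 0.0576 to 0.155), with DESeq2 size factors (0.06) and with the DESeq2 test (0.0532), while scaling by total counts gave -1.72. In order of mean level the groups stood as hnRNP H1, hnRNP F, FLAG, La/SSB, Input and hnRNP K; hnRNP H1 against hnRNP F, hnRNP F against FLAG and La/SSB against Input did not pass.

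For all 3 mRNAs the call in each comparison with FLAG or Input was the same in the authors' deposited table, which gives edgeR fold changes and FDR values for 9 group pairs. Of the 27 values for the 3 mRNAs, 13 had an FDR under 0.05 in the authors' deposited table and the same 13 were called here. The log2 fold changes differed from those in the authors' deposited table by at most 0.07.

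Levels can be set side by side between genes only per length, for which the deposited FPKM (reads scaled to transcript length and to counted reads) was used, within each library. Per length, Kpnb1 was 58.2, 60.9 and 57.7 times as abundant as Kpna6 in the hnRNP F RIP libraries. The same FPKM ratio was 9.41, 13.1 and 18.8 in the hnRNP H1 RIP libraries. It was 5.85 to 8.60 with hnRNP K, 7.03 to 8.54 with La/SSB, 6.60 to 12.7 with FLAG and 5.27 to 11.6 in Input. The ratio of importin beta to this importin alpha mRNA was thus higher in each hnRNP F library than in any other library, and close among the 3 although their Kpnb1 level itself ran from 320 to 517 FPKM. The FPKM ratio was described and not tested.

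**Figure D3:**
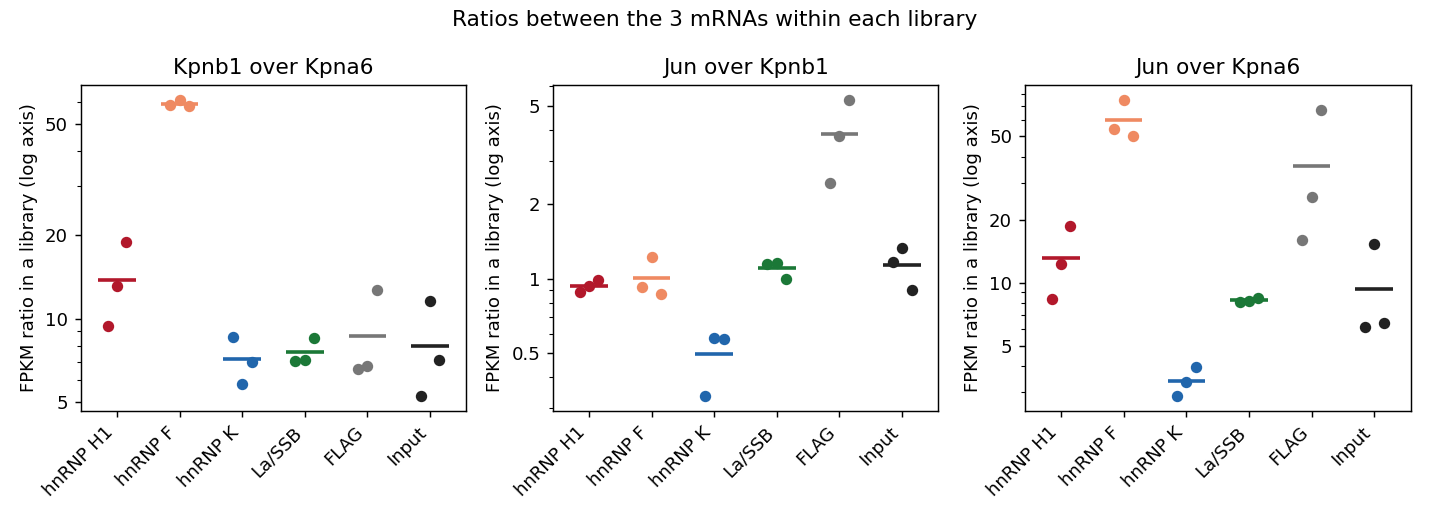
Ratio of deposited FPKM between the mRNAs in each of the 18 libraries (points, log axis) with the group mean (bar). Kpnb1 over Kpna6 averages 59.0 in the hnRNP F RIP and 13.8 in the hnRNP H1 RIP, and Jun over Kpnb1 averages 3.84 in the FLAG RIP.

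Jun and Kpnb1 were held at nearly equal FPKM in 4 of the groups. Jun over Kpnb1 averaged 0.938 ± 0.0529 with hnRNP H1, 1.01 ± 0.191 with hnRNP F, 1.102 ± 0.0920 with La/SSB and 1.13 ± 0.216 in Input. It was lower with hnRNP K, 0.494 ± 0.138, and higher in the FLAG RIP, at 2.44, 3.79 and 5.301 in the 3 libraries. No hnRNP K library reached the lowest of those 4 groups and no FLAG library came down to their highest. By FPKM rank among the entries of a library, Kpnb1 stood at rank 73 to 86 with hnRNP H1 and at rank 661 to 704 in Input. Jun stood at rank 79 to 96 with hnRNP H1 and at rank 491 to 813 in Input, and Kpna6 at rank 1113 to 2065 with hnRNP H1 and at rank 3862 to 6181 in Input.

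Over the 6 group means of log2 CPM, Pearson's r was 0.776 between Kpnb1 and Jun, 0.508 between Kpnb1 and Kpna6 and 0.309 between Kpna6 and Jun; the points share libraries, scaling and depth. Of 7946 entries with a mean of at least 10 CPM and a range of group means of at least 1 on the log2 scale, those most like Kpnb1 by this r were Pbx2, Zfp91, Cstf2t, Otud7b and Ccnd1 (r of 0.997 to 0.999 over 6 groups, and 0.885 to 0.985 over the 18 libraries). Those most like Jun were Gimap7, Naa15, Tcf4, Net1 and Inppl1 (0.995 to 0.998 over groups, 0.806 to 0.974 over libraries). Lif, Desi2 and Rbm14, among those most like Kpna6, were less close to it (0.911 to 0.979 over groups), and over the 18 libraries their r was 0.0975 to 0.648, lowest for Lif. These are descriptions of 6 points each.

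The wider importin and exportin family, 24 of 25 listed symbols with 25 entries tested, moved in both directions. With hnRNP H1 against FLAG 11 entries rose and 6 fell, Kpnb1 and Kpna6 among those that rose. The median log2 fold change was 0.75 beside -0.27 for all transcripts. With FLAG RIP 2 alone, where 26 entries were tested, that median was 1.16 beside 0.14 for all transcripts. With hnRNP F 7 rose and 6 fell (median -0.12 beside -0.21; 7 and 10 when scaled by total counts, with a median of -0.49 beside -0.54). With hnRNP K 3 rose and 3 fell (median 0.02 beside -0.30; 0 and 7 when scaled by total counts, with a median of -0.47 beside -0.80), and with La/SSB 1 rose and 1 fell (median -0.22 beside -0.32).

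Ipo7, an importin beta family member that also forms a dimer with Kpnb1 to import histone H1, rose with hnRNP H1 to 810 ± 113 CPM, against 65.2 ± 22.2 CPM with FLAG (log2 3.62 ± 0.34, adjusted p = 9.07e-07). It rose with hnRNP F as well, to 543 ± 215 CPM (3.04 ± 0.33), and less with hnRNP K (0.83). Xpo5, which exports microRNA precursors, had 15.1 ± 3.85 CPM with hnRNP H1, 17.4 ± 6.44 CPM with hnRNP F and 28.1 ± 2.25 CPM with La/SSB, against 116 ± 88.9 CPM with FLAG, and fell in all 3 comparisons (log2 -2.96, -2.75 and -2.08). The FLAG RIP itself lay above the 27.4 ± 4.77 CPM of Xpo5 in Input (log2 2.08, edgeR adjusted p = 0.00948). Against Input, Xpo5 did not pass with hnRNP F (-0.66) or La/SSB (0.03). Cse1l, which returns importin alpha to the cytoplasm, fell with hnRNP F to 8.18 ± 1.99 CPM, against 70.3 ± 32.4 CPM with FLAG (-3.11 ± 0.54), and with hnRNP H1 (-1.96). Ipo5 fell with hnRNP H1 and hnRNP F (-2.06 and -2.301). Kpna5 rose with hnRNP F (3.21, on 39 FLAG reads, with overlapping libraries), but did not pass with hnRNP F against Input (0.15). With hnRNP K, Tnpo3 and Xpo7 rose (1.197 and 1.15), as they did with hnRNP H1 (2.88 and 1.74) and hnRNP F (2.67 and 1.45). None of Ipo7 (0.09), Tnpo3 (0.24) and Xpo7 (0.95) passed with hnRNP K against Input. Kpna2 and Ipo4 fell with hnRNP K against FLAG (-2.88 and -2.11). Another entry of Tnpo3, read at 0 throughout the FLAG RIP, was at least 20.2-fold higher with hnRNP H1 on 37 reads, taking 3 reads over the FLAG group as the floor.

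Among the other importin alpha genes, named after their values were seen, none passed as higher with hnRNP H1 and missed the threshold with hnRNP F, as Kpna6 did. Kpna1 fell with hnRNP H1 (log2 -1.27, adjusted p = 0.0129) and did not pass with hnRNP F (-0.72, adjusted p = 0.147). Kpna3 (-0.43 and -0.92) and Kpna4 (0.75 and 0.56) passed with neither hnRNP H1 nor hnRNP F, nor did Kpna2 (-2.37 and -2.68). Kpna5, at 9.17 CPM with hnRNP H1 and 11.4 CPM with hnRNP F against 1.25 CPM with FLAG, rose with both (2.88 and 3.21). Input held 10.3 ± 4.18 CPM of Kpna5, and the FLAG RIP, on 39 reads, lay below Input (log2 -3.05, edgeR adjusted p = 0.0276). Kpna5 with hnRNP F did not pass against Input (log2 0.15, edgeR adjusted p = 0.925).

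**Figure D4:**
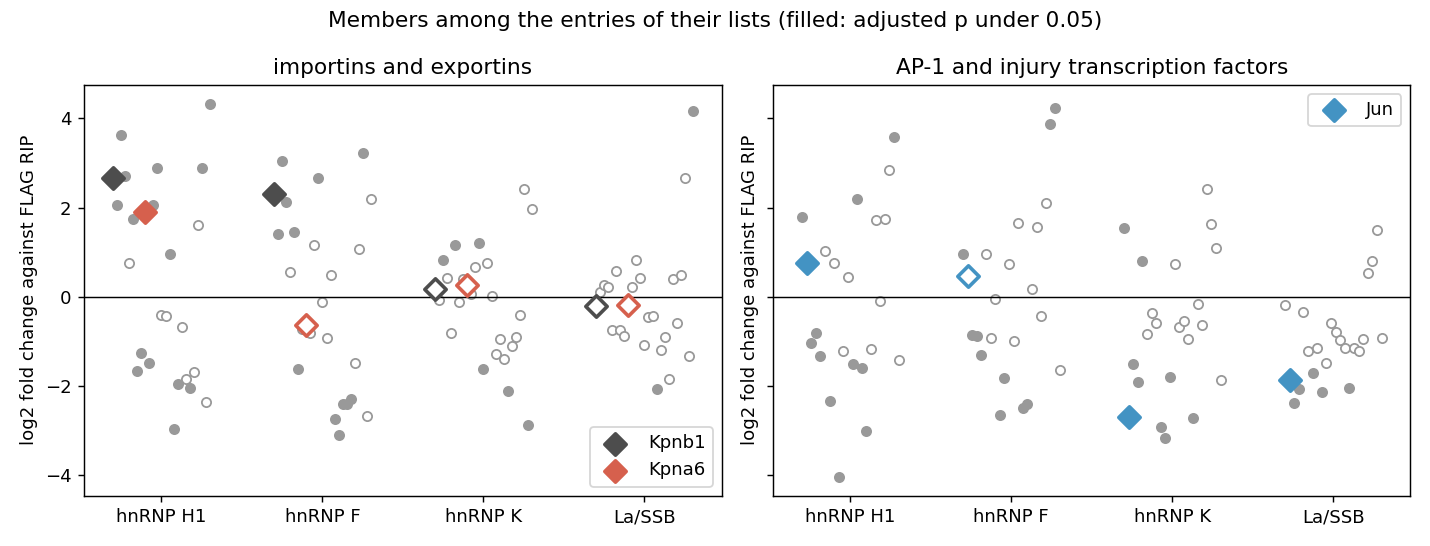
Log2 fold change against the FLAG RIP of the entries of the importin and exportin list (left, 25 entries) and of the AP-1 and injury transcription factor list (right, 22 entries) for the 4 specific RIPs; filled symbols passed at adjusted p under 0.05. Kpnb1 and Kpna6 are among 11 importin entries above 0 that passed with hnRNP H1, and Jun is above most of its list with hnRNP H1 and among the lowest with hnRNP K.

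The Ran cycle, which loads and unloads importins, had 8 entries tested. Of these 1 rose and 3 fell with hnRNP H1, 1 and 2 with hnRNP F, 1 and 1 with hnRNP K, and 0 and 2 with La/SSB. Ran, the GTPase that releases cargo from importin beta in the nucleus, fell in all 4 RIPs relative to its 103 ± 24.3 CPM in the FLAG RIP. It had 20.2 ± 3.19 CPM with hnRNP H1 (log2 -2.36), 25.5 ± 14.1 CPM with hnRNP F (-2.04), 11.6 ± 5.01 CPM with hnRNP K (-3.13) and 28.8 ± 16.9 CPM with La/SSB (-1.87). Input held 43.3 ± 8.20 CPM of Ran, below every FLAG library, though FLAG against Input did not pass (1.25). Ran did not pass against Input with hnRNP F (-0.76) or La/SSB (-0.59). Rcc1, its nuclear exchange factor, rose with hnRNP H1 to 45.4 ± 16.5 CPM and with hnRNP F to 45.4 ± 34.8 CPM, against 2.56 ± 3.87 CPM with FLAG (4.18 and 4.15). Nutf2, which carries Ran into the nucleus, rose with hnRNP K (1.34) and fell with hnRNP H1 (-1.17), hnRNP F (-1.25) and La/SSB (-0.98). Relative to Input, Nutf2 passed as lower with hnRNP F (-0.98) but did not pass with La/SSB (-0.69). With FLAG RIP 2 alone 9 entries were tested. The list medians were then -0.11, 0.12, 0.20 and -0.19 for hnRNP H1, hnRNP F, hnRNP K and La/SSB. The medians of all transcripts in those comparisons were 0.14, 0.18, 0.10 and 0.06.

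Of 10 entries for mRNAs and partners of the axonal retrograde injury signal, Kpnb1 was the only entry that rose with hnRNP H1 or hnRNP F, beside 4 that fell in each, with Vim, Atf4 and Stat3 among them. Vim, whose protein vimentin takes part in the importin complex of injured axons, fell with hnRNP H1 to 553 ± 40.1 CPM and with hnRNP F to 778 ± 248 CPM, against 2602 ± 476 CPM with FLAG (log2 -2.25 and -1.76). Atf4, a stress-response transcription factor, fell with hnRNP H1 (-2.52), hnRNP F (-1.62) and La/SSB (-1.41). The FLAG RIP itself held more Atf4 than Input (log2 0.98, edgeR adjusted p = 0.0208), with overlapping libraries. Against Input, Atf4 did not pass with hnRNP F (-0.62) or La/SSB (-0.39). With hnRNP K 2 of these entries rose and 3 fell: Mapk3, a MAP kinase, and Stat3, a transcription factor activated in injured axons, rose (1.04 and 0.80), while Stat3 fell with hnRNP H1 and hnRNP F (-1.34 and -1.31). Mtor, a kinase that controls translation, fell with hnRNP K (-1.61). With La/SSB 0 rose and 3 fell, Atf4 among them. With FLAG RIP 2 alone the list medians were 0.34 with hnRNP H1, -0.37 with hnRNP F, 0.31 with hnRNP K and -0.09 with La/SSB. The medians of all transcripts in those comparisons were 0.14, 0.18, 0.10 and 0.06.

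The AP-1 and injury transcription factor list had 22 entries tested, Jun included. Of these 4 rose and 8 fell with hnRNP H1 (median -0.46), 3 and 7 with hnRNP F (-0.25), 2 and 7 with hnRNP K (-0.66) and 0 and 6 with La/SSB (-1.14). With FLAG RIP 2 alone these medians were 0.27, 0.10, -0.16 and -0.63, in the same order. The medians of all transcripts in those comparisons were 0.14, 0.18, 0.10 and 0.06. Cebpd, a stress-induced transcription factor, fell in all 4 RIPs, most with hnRNP H1 (16.1 ± 1.25 CPM, against 264 ± 96.2 CPM with FLAG; log2 -4.04). The FLAG RIP itself lay above the 63.3 ± 15.8 CPM of Cebpd in Input (log2 2.06, edgeR adjusted p = 0.00728). Against Input, Cebpd did not pass with hnRNP F (-0.58) or La/SSB (-0.05). Egr1, an immediate early gene, rose with hnRNP K to 2649 ± 654 CPM, against 930 ± 212 CPM with FLAG (1.54), where Jun fell, and it rose with hnRNP H1 (1.796) and hnRNP F (0.96) too. Of Jun's dimer partners and relatives, named after their values were seen, Jund fell with hnRNP H1 (-2.33, adjusted p = 0.000156) and did not pass with hnRNP F (-0.92, 0.0622). The FLAG RIP itself held more Jund than Input (log2 1.11, edgeR adjusted p = 0.0332). Fos fell with hnRNP H1 and hnRNP F (-1.61, 0.036, and -2.503, 0.00427), and Junb fell with hnRNP K (-2.71, 0.00182).

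The stress kinases upstream of Jun had 16 entries tested, of which 6 rose and 2 fell with hnRNP H1 (median 1.06), 5 and 3 with hnRNP F (0.37), 2 and 1 with hnRNP K (-0.35) and 1 and 1 with La/SSB (-0.31). Map2k4, which phosphorylates JNK, fell with hnRNP H1 (5.56 ± 1.39 CPM, against 21.7 ± 5.59 CPM with FLAG; log2 -1.98) and hnRNP F (-3.00). Map3k11, an upstream kinase, fell with hnRNP H1 (-1.79), hnRNP F (-1.22) and La/SSB (-0.98), and its relative Map3k10 rose with hnRNP H1 and hnRNP F (3.42 and 3.43). The FLAG RIP held 6.01 ± 8.14 CPM of Map3k10 and Input 13.4 ± 1.49 CPM. Map3k10 did not pass with hnRNP F against Input (2.28). For Map3k11 the FLAG RIP itself, at 251 ± 47.8 CPM, lay above the 92.4 ± 23.4 CPM of Input (log2 1.44, edgeR adjusted p = 0.00737). Against Input, Map3k11 did not pass with hnRNP F (0.23) or La/SSB (0.50). The kinase counts with FLAG RIP 2 alone were 4 and 1, 3 and 1, 0 and 0, and 0 and 0. Of 23 dynein and dynactin entries, the motor that carries the importin complex, 8 rose and 10 fell with hnRNP H1, 4 and 8 with hnRNP F, 3 and 10 with hnRNP K, and 2 and 7 with La/SSB. Dynll2, a dynein light chain, rose with hnRNP F to 3024 ± 1921 CPM, against 175 ± 48.4 CPM with FLAG (4.07 ± 0.36), and likewise with hnRNP H1 (3.92). Dync1li1, a light intermediate chain, fell with all 4 antibodies (-3.28, -3.01, -3.58 and -2.66, in the same order). Its FLAG level, 130 ± 138 CPM, itself lay above the 29.2 ± 10.8 CPM of Input (log2 2.16, edgeR adjusted p = 0.0188). Against Input, Dync1li1 did not pass with hnRNP F (-0.83) or La/SSB (-0.46). The calls of FLAG against Input given for list genes rest on 1 estimate of spread shared by all groups. With only the libraries compared, edgeR called 32 transcripts for FLAG against Input, where 2150 are reported. The motor medians with FLAG RIP 2 alone were -0.88, -0.28, -0.47 and -0.29, in the order given for the kinases. The counts of the lists above are read beside the share of all transcripts that passed in the same direction. That share was 18.3% higher and 21.2% lower with hnRNP H1, and 16.6% and 17.1% with hnRNP F. It was 14.5% and 19.4% with hnRNP K, and 9.1% and 9.67% with La/SSB.

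Markers of other cells moved with these groups too. Macrophage and leukocyte markers (8 of 10 listed, all with reads in every group) held 1.51% to 2.27% of reads with hnRNP H1 and 1.47% to 3.29% with hnRNP F. They held 0.379% to 0.634% with hnRNP K, 0.608% to 1.16% with La/SSB, 0.594% to 0.829% with FLAG and 0.763% to 1.01% in Input. The high shares with hnRNP H1 and hnRNP F were Gpnmb, a glycoprotein of macrophages and other cells; without it the list held 0.0723% to 0.0977% with hnRNP H1, 0.132% to 0.193% with hnRNP F, 0.246% to 0.391% with hnRNP K, 0.431% to 0.795% with La/SSB, 0.413% to 0.551% with FLAG and 0.570% to 0.686% in Input. Against FLAG, 2 of its 10 entries rose and 6 fell with hnRNP H1, and likewise 2 and 6 with hnRNP F. Schwann cell markers (11 of 12 listed) held 0.128% to 0.175% with hnRNP H1, 0.203% to 0.279% with hnRNP F, 0.399% to 0.477% with hnRNP K, 0.351% to 0.447% with La/SSB, 0.132% to 0.228% with FLAG and 0.311% to 0.380% in Input. Erythrocyte markers (4 of 4 listed) held 0.753% to 2.25% in the FLAG RIP and at most 0.928% in any other group. Their part in the levels of the 3 mRNAs was not tested.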

How the data were processed

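The deposited table gives, per the file headers, a read count, an FPKM value (scaled to length and counted reads) and annotation for each transcript and library, with the authors' edgeR log2 fold changes and FDR (adjusted p-value) for 9 group pairs, also per the file headers. The deposited counts have 1 added: the lowest is 1 in 17 of 18 libraries (11 in La/SSB RIP 1), and FPKM is 0 exactly where the count is 1. Per the submitters' processing notes, CASAVA 1.8.2 and edgeR were among the tools. Not given in the sources used here are the aligner, the read counter, whether strand was used, the filter and the build. A further 18 columns of normalised counts by the authors were not used.

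Counts as deposited were tested with edgeR 4.0.16 (quasi-likelihood F-test, two-sided) in R 4.3.3, with limma 3.58.1 and DESeq2 1.42.0 as alternatives. The low-count filter was filterByExpr (minimum 10, minimum total 15), scaling was TMM and p-values were Benjamini-Hochberg adjusted over all transcripts. Comparisons among RIPs used the 15 RIP libraries in 1 fit (13276 transcripts), and comparisons with Input all 18 (13300 transcripts), so groups share 1 estimate of spread although their spread differs. Log2 CPM has a prior count of 2. Groups and replicate numbers came from the sample titles. Totals of 4610750 to 16754262 reads limit precision for rare entries; the lowest deposited count of a member was 167.

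The 3 mRNAs, the lists of pathway and marker genes and the tests were chosen with earlier results of these data known. Per list and comparison with FLAG, at most the 2 called entries with the largest rise and the 2 with the largest fall were named, apart from those said to be named after their values were seen. A few genes that this rule or the likeness rule picked are not reported here. List medians were the same with entries of 0 FLAG reads at their lower bound. The labels do not say whether libraries of the same number share material, and the fit has no replicate block. Over 15 comparisons, same-numbered libraries' deviations correlated at 0.00529 to 0.195, and every pair was over 0.1 in 1 comparison only. Such low correlations do not show that the numbers are unrelated, and the order of some marker shares given below is a hint of shared material. Alternatives were other scalings, no filter, other tests, 1 subtracted, entries summed by symbol, a replicate block, only the libraries compared, FLAG RIP 2 alone, and each library left out.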

Additional observations from a re-analysis of the deposited data

How the results depend on the processing

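Over 48 results for the 3 mRNAs and 753 alternative values, 698 kept direction and side of the threshold; 28 turned sign, all in differences that did not pass, 20 lost and 7 gained a call. The cause was not tested. Scaling by total counts turned Kpnb1 and Kpna6 for hnRNP K against FLAG (-0.30 and -0.20), La/SSB (-0.54 and -0.45) and Input (-0.24 and -0.19) and for La/SSB against FLAG (0.24 and 0.26), weakened Jun for hnRNP H1 against FLAG (0.48) and called Kpna6 for hnRNP H1 against hnRNP F (2.56). Kpna6 in that pair was also called by DESeq2 (2.52), voom (2.57), the replicate block (2.48) and the 6 libraries alone (2.58). La/SSB against FLAG turned with 1 subtracted (Kpnb1 0.0234, Kpna6 0.0458), with FLAG RIP 2 alone (0.49 and 0.35) and, for Kpna6, with voom (0.0357) and only the libraries compared (0.0033). FLAG RIP 2 alone turned FLAG against Input (Kpnb1 -0.39, Kpna6 -0.29) and called Jun for hnRNP F against FLAG (1.05; 0.63 with 1 subtracted). Jun lost its call for hnRNP K against La/SSB with DESeq2 size factors (-0.77) and the DESeq2 test (-0.77), against Input with DESeq2 size factors (-0.75), and for FLAG against Input with only the libraries compared (1.75).

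Leaving out 1 library at a time changed a sign or call, within these ranges: for Jun, hnRNP H1 against FLAG 0.54 to 0.94, hnRNP K against La/SSB -0.94 to -0.72 and against Input -0.93 to -0.61, and La/SSB against Input -0.10 to 0.22; for Kpna6, hnRNP F against FLAG -0.98 to 0.13, hnRNP K against FLAG -0.0707 to 1.04, La/SSB against FLAG -0.53 to 0.58 and against Input -0.18 to 0.36, hnRNP H1 against hnRNP K 1.41 to 1.85, and FLAG against Input -0.52 to 0.59; for Kpnb1, hnRNP K against FLAG -0.0906 to 0.67, La/SSB against FLAG -0.48 to 0.28 and FLAG against Input -0.17 to 0.59. Where a comparison left 1 FLAG library, that library was assumed to vary like the other groups.

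Whether a replicate number marks shared material is not given in the labels, and some marker lists hold a hint that it does. The 3 numbers stood in the same order of skeletal muscle marker share (1, 3, 2, highest first) and of macrophage marker share (3, 2, 1) in 6 of 6 groups. For the other marker lists the most common order held in fewer groups. These were 5 of 6 for fibroblasts and perineurium, 4 of 6 for Schwann cells and for endothelium and mural cells, 3 of 6 for erythrocytes and 2 of 6 for neurons and axons. The replicate block changed 1 of 45 calls, Kpna6 in hnRNP H1 against hnRNP F (2.48, adjusted p = 0.0362), and raised the transcripts called there from 0 to 9 and for La/SSB against Input from 5 to 33.

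Counts of transcripts called depended far more on the setting. Given with the reported value in brackets, they ran from 2891 to 6109 (5245) for hnRNP H1 against FLAG and from 1640 to 5304 (4473) for hnRNP F. They reached 5398 (4497) for hnRNP K and 3898 (2492) for La/SSB. The lowest counts of hnRNP K and La/SSB, from the fit with FLAG RIP 2 alone, are left out. For hnRNP H1 they were 0 to 81 (0) against hnRNP F, 2745 to 6497 (3767) against hnRNP K and 1419 to 3977 (2155) against La/SSB. Beside La/SSB they were 1097 to 2527 (1663) for hnRNP F and 827 to 4577 (1674) for hnRNP K. Among the 4 RIPs they were 3385 to 7443 (4422). Beside Input they were 2348 to 5053 (3207) for hnRNP H1, 1675 to 3281 (2514) for hnRNP F and 811 to 4640 (1736) for hnRNP K. They were 0 to 291 (5) for La/SSB and 32 to 3618 (2150) for FLAG beside Input. Scaling by total counts lowered the share of calls that were higher to 36.0% (46.4% reported) for hnRNP H1 against FLAG, 37.0% (49.3%) for hnRNP F and 25.2% (42.7%) for hnRNP K, and raised it to 75.6% (48.5%) for La/SSB; against Input it was 31.0% (55.6%), 33.3% (61.8%), 12.3% (50.4%), 83.3% (60.0%, or 40.0% with DESeq2 size factors) and 38.2% (53.9%) for those 4 RIPs and FLAG, in the order above, and against La/SSB 24.0% (61.8%), 26.7% (73.0%) and 9.5% (57.6%) for hnRNP H1, hnRNP F and hnRNP K. With that scaling the median over transcripts was -1.04 (-0.15 reported) for hnRNP K against La/SSB, the widest such shift of the 15 comparisons.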
